A study of Mus musculus with 8 samples.

Results

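Grb2, Grb14, Shc1 and Sh2d5 are 4 genes for adapter proteins with an SH2 domain, selected by symbol from the 12193 gene loci with FPKM values (fragments per kilobase of gene length, scaled to library depth) in each library. All 4 were among the 10874 loci that reached an FPKM of 1 in at least 2 libraries and were tested. The cells were AtT-20, a mouse pituitary tumour line of corticotrope type in which Pomc encodes the ACTH precursor, and the study asked what EGF and its receptor do to transcription there. A line of genotype Neo (control) received water (Neo water), and a line of genotype EGFR received water (EGFR water), EGF for 3 h or EGF for 18 h, with 2 libraries in each of the 4 groups. Water libraries carry the 3 h label only, so EGF and time in culture cannot be told apart at 18 h, and no Neo library received EGF. The labels name neither the promoter nor the species of the introduced receptor, and do not say whether a line is 1 clone. Nor do they say that replicates were separate cultures, so all p-values measure the spread between these libraries only, which may be technical.

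An activated receptor tyrosine kinase such as EGFR phosphorylates its own tail, and SH2 domains bind the phosphotyrosines. Shc1 docks on receptors through SH2 and PTB domains, is phosphorylated in turn and recruits Grb2. Grb2, an SH2 domain between SH3 domains, carries the exchange factor SOS to the membrane, where SOS activates RAS and through it the ERK kinases. Grb14 belongs to the Grb7 and Grb10 family, binds the insulin receptor and other receptors and restrains insulin receptor signalling. Sh2d5 has a PTB and an SH2 domain, binds the RAC regulator BCR and is known mainly from brain.

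The 8 libraries had FPKM sums of 683834 to 808072 and medians of 14.3 to 14.7. The steps between low FPKM values gave a rough depth of 55750000 to 66250000 fragments per library, at which 395 fragments (Sh2d5, EGFR water 2) to 14632 fragments (Grb14, EGF 18 h 1) would lie behind a value below if all annotated exon bases were counted. Of 6 corticotrope markers, 5 had values (Pomc, Pitx1, Pcsk1, Tbx19 and Neurod1, summed FPKM 7443 to 9441), and 0 of the 21 markers of other pituitary lineages, fibroblasts, endothelium and blood had values in the tables used. Egfr, the check of the line, was 0.227 and 0.0664 FPKM in Neo water and 25.9 and 27.5 in EGFR water. These are bulk libraries, so fewer cells with a transcript and less transcript per cell cannot be told apart. Small RNA genes held 39.0% and 33.2% of the FPKM sum in Neo water 1 and 2 and 29.1% to 32.8% in the other 6 libraries. Their part in the differences between the lines was not tested beyond rescaling to a common sum.

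The 4 genes did 4 different things. Sh2d5 rose most at 3 h of EGF and was lower again at 18 h, while Grb14 rose slightly at 3 h and more than 4-fold by 18 h. Shc1 did not pass at 3 h and was higher at 18 h than in water or at 3 h. Grb2 was called lower in EGFR water than in Neo water, a call lost under 9 of 17 alternatives (adjusted p up to 0.182), and passed in neither EGF comparison, although its 3 h change passed under 2 alternatives (adjusted p = 0.0294 and 0.0465).

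**Figure D1:**
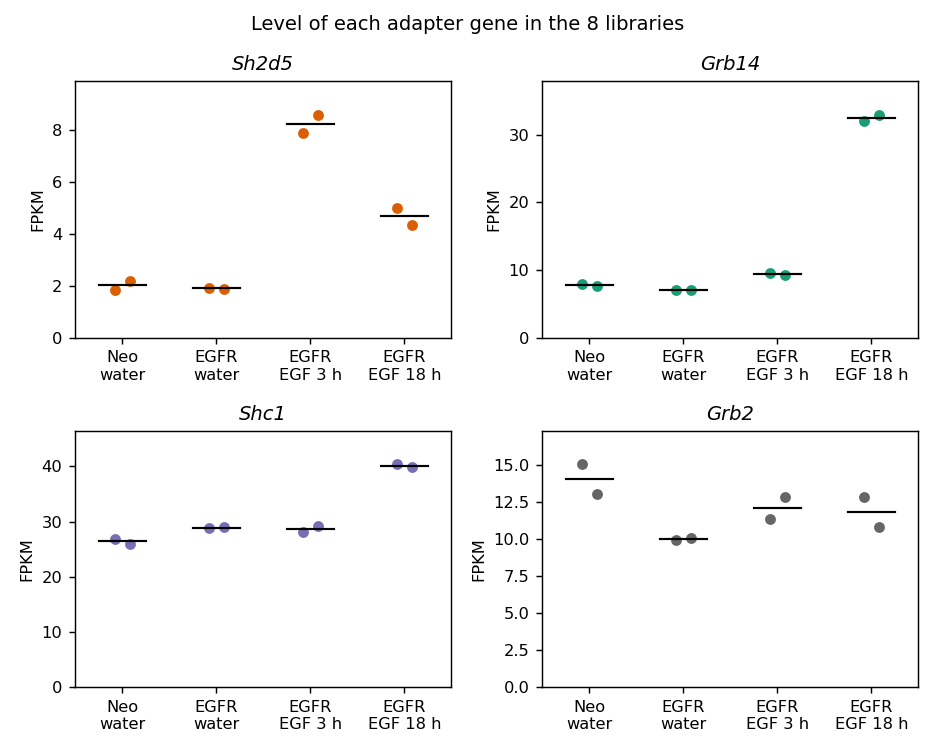
FPKM (vertical axes, from 0) of Sh2d5, Grb14, Shc1 and Grb2 in each of the 8 libraries, with the libraries of a group side by side (horizontal axis); points are libraries and bars are means of n = 2. Sh2d5 peaks at 7.90 and 8.61 at 3 h of EGF, Grb14 and Shc1 are highest at 18 h, and the Grb2 libraries of a group spread widely outside EGFR water.

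Sh2d5 (ENSMUSG00000045349, protein-coding, mm10 chromosome 4, 138250403 to 138261332, plus strand) had the lowest FPKM of the 4 in all groups. Its FPKM was 1.86 and 2.17 in Neo water, 1.93 and 1.89 in EGFR water, 7.90 and 8.61 after 3 h of EGF, and 5.0 and 4.36 after 18 h. The water libraries of the lines overlapped, all 4 EGF libraries lay above all 4 water libraries, and both 18 h libraries lay below both 3 h libraries. Among the tested genes, the mean of Sh2d5 moved from percentile 2.81 in EGFR water to 26.6 at 3 h and 12.2 at 18 h. Fold changes below are log2 values of FPKM + 1, tested by limma-trend with Benjamini-Hochberg adjustment over all 10874 genes, and understate changes at low FPKM.

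After 3 h of EGF, Sh2d5 rose by 1.67 ± 0.08 (SE; 8.26 ± 0.50 against 1.91 ± 0.0242 FPKM, mean ± SD, n = 2, adjusted p = 4.17e-05), a 4.32-fold ratio of mean FPKM. That was the increase of rank 20 among all genes tested. At 18 h it was still above water by 0.96 ± 0.08 (4.68 ± 0.454 FPKM, adjusted p = 0.000195), a 2.45-fold ratio. Between 3 h and 18 h it fell by 0.71 on the log2 scale (SE 0.08, adjusted p = 0.00127), the decrease of rank 38. Both EGF comparisons share the EGFR water libraries, and the direct comparison of 18 h with 3 h is the test that they differ. It cannot tell EGF from time in culture, since water libraries carry the 3 h label only. The lines did not differ by test in water (−0.05, 95% interval −0.24 to 0.14, adjusted p = 0.746). Of the 3740 exon bases of Sh2d5, 74 share their position with Kif17, a kinesin gene on the same strand, and reads there cannot be assigned to either gene.

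The direct partner of the Sh2d5 protein, Bcr, changed less. Bcr was 5.67 ± 0.109 FPKM in EGFR water, 5.96 ± 0.101 after 3 h and 7.13 ± 0.0966 after 18 h, with log2 changes of 0.06 (adjusted p = 0.367) and 0.29 (adjusted p = 0.00503). Its relative Abr fell after 3 h by 0.27 on the log2 scale (21.7 ± 1.09 against 26.3 ± 1.03 FPKM, adjusted p = 0.00962), a call that common-sum rescaling or omission of EGFR water 1 or EGF 3 h 1 removed (adjusted p up to 0.0641).

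Grb14 (ENSMUSG00000026888, protein-coding, chromosome 2, 64912476 to 65024987, minus strand) had the largest change of the 4. Its FPKM was 7.95 and 7.67 in Neo water, 7.05 and 7.07 in EGFR water, 9.58 and 9.30 after 3 h of EGF, and 31.9 and 33.0 after 18 h. Neither EGF group overlapped the water libraries, and the 18 h libraries stood far above all others. The 3 h change was small at 0.37 ± 0.04 (9.44 ± 0.198 against 7.06 ± 0.0135 FPKM, adjusted p = 0.000809), a 1.34-fold ratio of means.

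By 18 h Grb14 had risen by 2.05 ± 0.04 (32.5 ± 0.729 FPKM, adjusted p = 2.30e-07), a 4.6-fold ratio and the increase of rank 21. The difference between 18 h and 3 h was 1.68 ± 0.04 (adjusted p = 4.02e-06), the increase of rank 15. Its mean moved from percentile 21.7 of tested genes in EGFR water to 69.7 at 18 h (percentile 30.5 at 3 h). The lines did not differ by test (−0.13, 95% interval −0.22 to −0.04, adjusted p = 0.0910), although both EGFR water libraries lay below both Neo libraries. No exon base of Grb14 shares its position with another gene, and no near-identical copy of its transcripts was found.

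The relatives of Grb14 and Shc1 are named as such, a choice made after their values were seen. Grb7, the sister adapter of Grb14, moved the other way at 3 h: it fell by 0.51 on the log2 scale (10.7 ± 0.307 against 15.6 ± 0.188 FPKM, adjusted p = 0.000489). At 18 h it was 13.8 ± 0.556 FPKM, above 3 h by 0.34 (adjusted p = 0.00216). Its 18 h change against water, −0.16 (adjusted p = 0.0326), lost its call under 7 of 17 alternatives, among them omission of any 1 EGFR water or EGF 18 h library (adjusted p up to 0.163). Grb7 was also lower in EGFR water than in Neo water (−0.35, adjusted p = 0.00905), a call lost without Neo water 1, EGFR water 1 or EGFR water 2 (adjusted p = 0.0573 to 0.0735). Insr, the insulin receptor to which Grb14 binds, fell after 3 h by 0.30 on the log2 scale (8.44 ± 0.179 against 10.6 ± 0.144 FPKM, adjusted p = 0.00563). After 18 h, when Grb14 was highest, Insr was 10.4 ± 0.616 FPKM, with a log2 change against water of −0.03 (95% interval −0.14 to 0.09, adjusted p = 0.726).

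RefSeq promoter entries (GRCm38.p6, the assembly of mm10, 250 bases before to 50 after a start) were found for 3 of the 4 genes, not Sh2d5. The promoters of both genes whose highest values were at 18 h are shown, 5′ to 3′ in the direction of the gene, in lower case with motif matches in capitals. Both strands were searched for AP-1 (TGANTCA), the ETS core (CCGGAAG), STAT (TTCNNNGAA), the CRE core (TGACG), the E-box (CACGTG) and the serum response element. Overlapping matches of different motifs did not occur.
Grb14, chr2:65022717-65023016, minus strand: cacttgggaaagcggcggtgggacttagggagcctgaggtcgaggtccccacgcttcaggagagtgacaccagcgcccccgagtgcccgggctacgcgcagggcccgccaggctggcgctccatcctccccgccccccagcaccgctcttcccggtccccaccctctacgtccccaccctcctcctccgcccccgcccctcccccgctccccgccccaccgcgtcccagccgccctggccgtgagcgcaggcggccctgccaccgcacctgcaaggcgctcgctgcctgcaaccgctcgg
Shc1 upstream start, chr3:89418301-89418600, plus strand: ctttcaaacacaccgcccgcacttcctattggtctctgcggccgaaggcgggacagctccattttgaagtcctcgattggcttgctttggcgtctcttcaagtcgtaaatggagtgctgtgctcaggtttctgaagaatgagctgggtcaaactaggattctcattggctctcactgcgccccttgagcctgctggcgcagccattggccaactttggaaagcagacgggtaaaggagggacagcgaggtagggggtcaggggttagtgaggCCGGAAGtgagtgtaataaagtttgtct
Shc1 downstream start, chr3:89421371-89421670, plus strand: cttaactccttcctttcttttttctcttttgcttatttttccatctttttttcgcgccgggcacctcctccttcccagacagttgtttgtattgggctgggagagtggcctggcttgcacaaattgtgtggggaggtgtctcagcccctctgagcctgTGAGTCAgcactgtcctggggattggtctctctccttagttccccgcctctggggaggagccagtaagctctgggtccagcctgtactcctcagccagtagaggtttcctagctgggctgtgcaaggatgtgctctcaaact
In the Grb14 window, 75.3% of bases were G or C and none of the 6 motifs matched. The Shc1 upstream window (53.7% G or C) held 1 ETS core 23 to 29 bases after the start, and the downstream window (53.3%) held 1 AP-1 match 92 to 86 bases before it. No match of the 6 motifs lay in either Grb2 window. The Grb14 start (65022766) and both Grb2 starts (115699928 and 115699534) lie inside their loci, downstream of the locus ends at 65024987 and 115708597. Bases around those ends were not searched. Among 32851 promoters of the same length, 8.86% held the ETS core, 7.81% AP-1, 8.30% STAT, 20.8% the CRE core, 7.15% the E-box and 1.63% the serum response element. A match is a description of letters, not a site shown to be used.

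Shc1 (ENSMUSG00000042626, protein-coding, chromosome 3, 89418443 to 89430027, plus strand) had the highest FPKM of the 4 in all libraries. Its FPKM was 26.9 and 26.0 in Neo water, 28.8 and 29.0 in EGFR water, 28.1 and 29.2 after 3 h of EGF, and 40.4 and 39.8 after 18 h. The 3 h and EGFR water libraries overlapped, and both 18 h libraries stood above the other 6. The 3 h change was −0.01 (95% interval −0.09 to 0.07, adjusted p = 0.769), and it was above 0 after median-ratio scaling (0.02), after rescaling to a common sum (0.07) and without EGF 3 h 1 (0.01).

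At 18 h Shc1 was higher than in water by 0.46 ± 0.03 (40.1 ± 0.412 against 28.9 ± 0.161 FPKM, adjusted p = 0.000121), a 1.39-fold ratio of means. Against 3 h it was higher by 0.47 ± 0.03 (28.6 ± 0.765 FPKM at 3 h, adjusted p = 0.000234). The line difference in water, 0.12 (95% interval 0.04 to 0.20), did not pass (adjusted p = 0.0788), with both EGFR libraries above both Neo libraries. A stretch of 705 bases of Shc1 transcript is 98.4% identical to a processed pseudogene, so part of its value is uncertain in source. The gene makes several protein isoforms, and a value per locus does not separate them.

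Shc2, a relative of Shc1 best known from neurons, was 22.8 ± 0.318 FPKM in EGFR water, 20.3 ± 1.53 after 3 h and 22.1 ± 0.00488 after 18 h. The 3 h change was −0.16 (adjusted p = 0.0393), a call lost under 12 of 17 alternatives, among them omission of any 1 library but EGF 3 h 2 (adjusted p up to 0.425). The 18 h change was −0.04 (adjusted p = 0.524). Shc4, a further relative, was near 1 FPKM in all groups, at 1.2 ± 0.0215 in EGFR water and 1.11 ± 0.0324 after 18 h (log2 change −0.06, adjusted p = 0.584).

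Grb2 (ENSMUSG00000059923, protein-coding, chromosome 11, 115644045 to 115708597, minus strand) was the least precise of the 4 by the SE of its log2 changes (0.10, against 0.08 for Sh2d5). Its FPKM was 15.1 and 13.0 in Neo water, 9.97 and 10.1 in EGFR water, 11.3 and 12.9 after 3 h of EGF, and 12.9 and 10.8 after 18 h. EGFR water was below every other library, and the 3 h and 18 h libraries overlapped. The SD was 10.2%, 0.873%, 8.97% and 12% of the mean in these groups, against 0.191% to 2.49% for Grb14. For Sh2d5 it was 11%, 1.27%, 6.05% and 9.71% in the same order. The estimated fragments behind the Grb2 values were 1641 to 2571.

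In EGFR water Grb2 was lower than in Neo water by a log2 change of −0.44 ± 0.10 (10.03 ± 0.0876 against 14.1 ± 1.44 FPKM, adjusted p = 0.0423), a ratio of means of 0.714. That call was lost without the filter on low values, without the variance trend and when only these 2 groups were fitted. Omission of either Neo water library, either EGFR water library or EGF 3 h 1 also removed it (adjusted p = 0.0501 to 0.182). After rescaling to a common FPKM sum it was −0.365 (adjusted p = 0.0472). The EGF changes were 0.25 at 3 h (95% interval 0.02 to 0.47, adjusted p = 0.0878) and 0.22 at 18 h (95% interval −0.01 to 0.44, adjusted p = 0.127). The 3 h change passed after rescaling to a common sum (adjusted p = 0.0294) and with only the 2 groups fitted (adjusted p = 0.0465). Between 18 h and 3 h the change was −0.03 (95% interval −0.26 to 0.19, adjusted p = 0.834).

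The partners that Grb2 brings to receptors are Sos1 and Sos2, named here after their values were seen. Sos1 was 3.47 ± 0.0902 FPKM in EGFR water, 3.94 ± 0.252 at 3 h (0.15, adjusted p = 0.0998) and 3.69 ± 0.198 at 18 h (0.07, adjusted p = 0.412). Sos2 was 9.41 ± 0.591, 9.41 ± 0.322 and 9.18 ± 0.0413 FPKM in the same order, with log2 changes of 0.00 (adjusted p = 0.983) and −0.03 (adjusted p = 0.670). Neither passed in any of the 4 comparisons.

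Counted together, 0 of the 4 adapter genes were higher and 1 was lower in EGFR water than in Neo water, where 6.01% of all tested genes were called (3.11% higher and 2.90% lower). At 3 h of EGF, 2 were higher and 0 lower, beside 31.5% of all genes (11.8% higher and 19.7% lower). At 18 h, 3 were higher and 0 lower, beside 31.9% (13.2% higher and 18.7% lower). Between 18 h and 3 h, 2 were higher and 1 lower, beside 33.7% (17.7% higher and 16.0% lower). With 4 genes chosen with earlier results known, these counts are a description only.

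**Figure D2:**
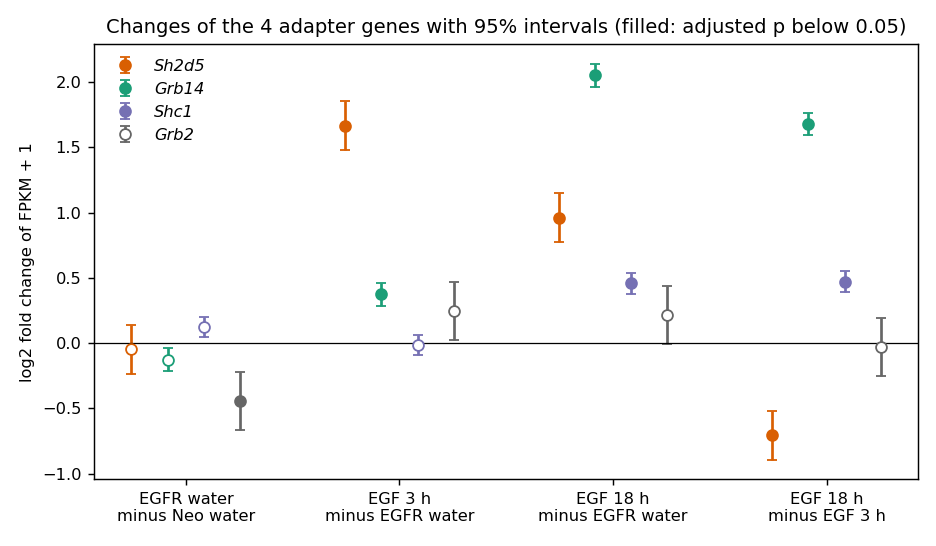
Log2 fold change of FPKM + 1 (vertical axis) with its 95% interval for the 4 genes in each of the 4 comparisons (horizontal axis); filled points have a limma adjusted p below 0.05. Sh2d5 leads at 3 h (1.67), Grb14 at 18 h (2.05), and Sh2d5 and Grb14 lie on opposite sides of 0 between 18 h and 3 h (−0.71 and 1.68).

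Because FPKM is per length, the values of the 4 genes are set side by side here. The length used for each gene is not given, so the order is one of FPKM and may not be that of transcript numbers. The order was Shc1, Grb2, Grb14 and Sh2d5 in Neo water, in EGFR water and at 3 h, and no neighbours in it overlapped in any of these groups. At 3 h Grb2 was at 12.1 ± 1.09, Grb14 at 9.44 ± 0.198 and Sh2d5 at 8.26 ± 0.50 FPKM. At 18 h Grb14 (32.5 FPKM) stood between Shc1 (40.1 FPKM) and Grb2 (11.9 ± 1.43 FPKM), again with no overlap.

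Ratios within a library do not depend on a scaling factor applied to the whole library, although quantile normalization can move them. The Grb14 to Grb2 ratio was 0.527 and 0.589 in Neo water, 0.707 and 0.700 in EGFR water, 0.845 and 0.722 at 3 h, and 2.48 and 3.04 at 18 h. Grb14 thus passed Grb2 only in the 18 h libraries. The Grb14 to Shc1 ratio was 0.244 to 0.245 in EGFR water and 0.792 to 0.829 at 18 h, so Grb14 gained on Shc1 although Shc1 itself rose. The Sh2d5 to Grb14 ratio was 0.268 to 0.274 in EGFR water, 0.825 to 0.926 at 3 h and 0.132 to 0.157 at 18 h. It was thus lowest at 18 h, below its value in water, while Sh2d5 itself remained above water.

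**Figure D3:**
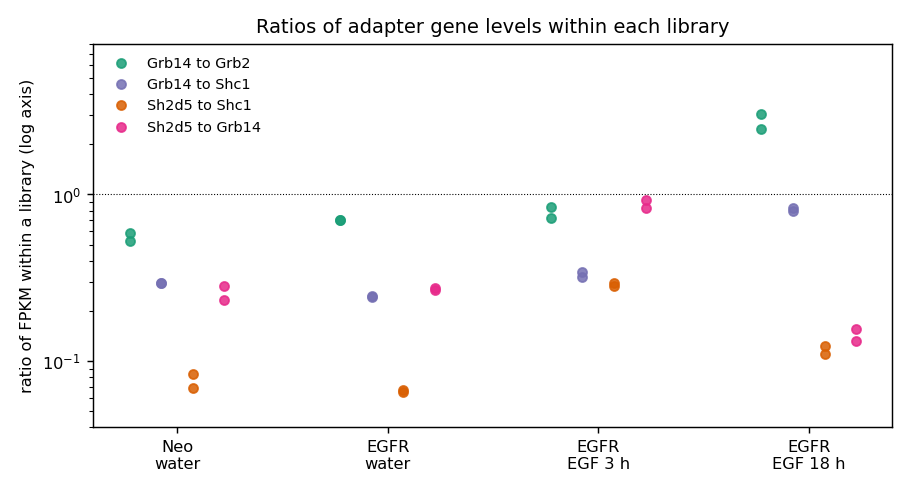
Ratio of FPKM between pairs of the genes within each library (vertical log axis) by group (horizontal axis); each point is 1 library and the dotted line marks equal levels. Grb14 to Grb2 crosses the line only at 18 h (2.48 and 3.04), and Sh2d5 to Grb14 is highest at 3 h.

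The counts of listed genes below stand beside shares of 31.5% at 3 h, 31.9% at 18 h and 33.7% between 18 h and 3 h called over all tested genes. Of 49 other SH2 adapters listed, 18 could be tested: 8 rose and 3 fell at 3 h, 7 rose and 2 fell at 18 h, and 3 rose and 2 fell between 18 h and 3 h. These are 61.1%, 50% and 27.8% of the 18 (median log2 changes 0.12, 0.09 and 0.02). All tested genes had medians of −0.04, −0.03 and 0.01. The largest at 3 h were Tns2, a tensin of focal adhesions (1.06, adjusted p = 0.000317), and Shb, an adapter of several receptors (0.87, adjusted p = 7.75e-05). Sh2b3, the adapter LNK that restrains cytokine receptors, also rose at 3 h (0.55, adjusted p = 0.00313). At 18 h the leaders were Chn2, a RAC GTPase-activating protein with an SH2 domain (0.91, adjusted p = 7.56e-06), and again Shb (0.75, adjusted p = 6.23e-05). Tns2 resembled Sh2d5 in falling between 3 h and 18 h (−0.46, adjusted p = 0.00706), and Chn2 resembled Grb14 in rising (0.41, adjusted p = 0.000501). The number that rose at 3 h was 4 without EGFR water 2 and 5 without EGFR water 1 or EGF 3 h 2, that between the times was 5 without EGF 3 h 2, and the number at 18 h was 4 with an FPKM filter of 5.

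Docking proteins are phosphorylated by receptors as landing sites for SH2 domains. Of 7 tested, 1 rose at 3 h and 1 at 18 h (14.3% each), 0 fell at either time, and 2 rose and 1 fell between the times (42.9%). The genes that rose against water were Nedd9, a scaffold of the CAS family (0.36 at 3 h, adjusted p = 0.000485), and Irs2, the insulin receptor substrate (0.48 at 18 h, adjusted p = 0.00157). Over the alternatives 1 to 3 rose at 3 h, with 3 after median-ratio, common-sum or quantile scaling, with only the 2 groups fitted or without either Neo water library. At 18 h 1 to 2 rose (2 without either Neo water library), and between the times 0 to 2 (0 without EGF 18 h 1 and 1 without EGF 3 h 2).

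Among all tested genes, 31.5% were called at 3 h, 31.9% at 18 h and 33.7% between the times. Enzymes that bind receptors by their own SH2 domains were represented by 20 tested genes. At 3 h 7 rose and 0 fell, at 18 h 6 rose and 1 fell, and between the times 4 rose and 3 fell, which is 35% called in each comparison (counts of increases 2 to 10, 3 to 8 and 1 to 4 over the alternatives). Without either EGFR water library or either EGF 3 h library, 2 or 3 rose at 3 h, and without either EGFR water library or EGF 18 h 2, 3 rose at 18 h. Between the times 1 or 2 rose without any 1 EGFR library, and 1 fell without EGF 18 h 2. Tec, a cytoplasmic tyrosine kinase, had the largest change at both times (1.05 and 0.96, adjusted p = 2.31e-05 and 2.03e-05). Pik3r1, the regulatory subunit of PI3K, rose at 3 h (0.49, adjusted p = 0.00153) and was lower at 18 h than at 3 h (−0.39, adjusted p = 0.00329), the same directions as Sh2d5. Plcg1, a phospholipase C, was higher at 18 h (0.37, adjusted p = 0.00189) and not by test at 3 h (0.00, adjusted p = 0.998), the same calls as Shc1.

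Among 15 receptor tyrosine kinases tested, 3 rose and 2 fell at 3 h (33.3%), 6 rose and 0 fell at 18 h (40%), and 8 rose and 1 fell between the times (60%). Kit, the receptor of stem cell factor, had the largest change at 18 h (1.30, 6.03 ± 0.0586 against 1.85 ± 0.00158 FPKM, adjusted p = 2.04e-05). Erbb3, a partner of EGFR, fell at 3 h by 0.55 on the log2 scale (adjusted p = 0.000380). Egfr itself was 26.7 ± 1.13, 29.7 ± 1.29 and 31.1 ± 1.11 FPKM in EGFR water, at 3 h and at 18 h, and did not pass in either EGF comparison (adjusted p = 0.157 and 0.0590). The number of receptors that rose at 3 h was 1 without EGFR water 1, EGFR water 2 or EGF 3 h 1.

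Grb2 feeds the route from SOS to ERK. Of its 19 tested genes, 3 rose and 1 fell at 3 h and 4 rose and 0 fell at 18 h, which is 21.1% called in each (0 to 6 and 4 to 7 increases over the alternatives, with 0 at 3 h without EGFR water 2 or EGF 3 h 1, 1 without EGFR water 1, 5 after median-ratio and 6 after quantile scaling). Between the times 6 rose and 0 fell (31.6%), with 0 increases after common-sum rescaling, 1 without EGF 18 h 1, 2 without EGF 3 h 1 and 3 without either EGFR water library. The largest 18 h change was in Nf1, a RAS GTPase-activating protein (0.42, adjusted p = 0.00179). In EGFR water against Neo water, 6.01% of all tested genes were called in either direction, and 2.90% of all tested genes were called lower. Of the 19 genes of the route, 0 were higher and 2 were lower (10.5%), as was Grb2. They were Mapk3, the kinase ERK1, (−0.40, 26.2 ± 0.714 against 35.0 ± 2.99 FPKM, adjusted p = 0.0171) and Map2k1, its activator MEK1, (−0.23, 42.9 ± 0.00516 against 50.3 ± 0.728 FPKM, adjusted p = 0.0126). Both lost the call without Neo water 1, EGFR water 1 or EGFR water 2, among other alternatives (adjusted p up to 0.122 and 0.175).

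Feedback inhibitors of receptor signalling had the most increases at 3 h among the lists. Of 17 tested, 12 rose and 0 fell at 3 h and 9 rose and 0 fell at 18 h, which is 70.6% and 52.9% called, with median log2 changes of 0.27 and 0.40. Dusp5, a nuclear ERK phosphatase, rose by 1.87 and 1.77 (adjusted p = 1.52e-06 and 1.37e-06), and Spred1, an inhibitor of RAF activation, by 1.0 and 0.66 (adjusted p = 0.000191 and 0.000538). Between 18 h and 3 h, 7 fell and 2 rose, 52.9%. With only the 2 groups fitted, 4 fell. Omission of EGF 3 h 1 also left fewer decreases, and omission of either EGF 18 h library left fewer than the fit of only the 2 groups. The number of decreases thus rests on single libraries. Only 1 rose with a pseudocount of 0.1, without the filter or after median-ratio, common-sum or quantile scaling. Omission of any 1 EGFR library also left fewer increases.

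**Figure D4:**
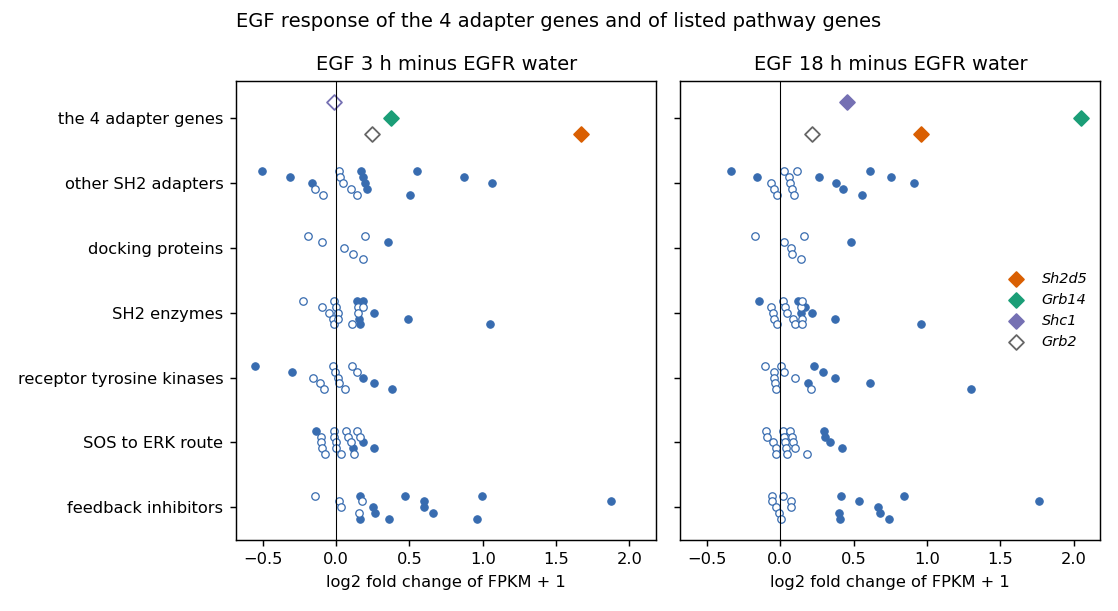
Log2 fold change of FPKM + 1 (horizontal axes) after 3 h (left) and 18 h (right) of EGF for the 4 adapter genes (diamonds) and each tested gene of 6 pathway lists (circles, 1 row per list); filled symbols have a limma adjusted p below 0.05, and both panels share the EGFR water libraries. Sh2d5 (1.67) lies above all listed genes but Dusp5 (1.87) at 3 h, and Grb14 (2.05) lies above all of them at 18 h.

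The genes whose course over the 8 libraries was closest to that of a member were taken by the root mean square difference of log2(FPKM + 1) values, each centred on its own mean. For Sh2d5 they were Scml4 (0.182), Hbegf (0.183), a ligand of EGFR, and Trim62 (0.226). Hbegf was 6.30 and 6.45 FPKM in EGFR water, 16.8 and 16.8 at 3 h and 10.5 and 10.9 at 18 h, the same order of groups as Sh2d5. For Grb14 they were Rab26 (0.152), a GTPase of secretory vesicles, and Trp53i11 (0.280). Rab26 was 1.73 and 2.17 FPKM in EGFR water, 3.83 and 3.97 at 3 h and 13.2 and 12.2 at 18 h. For Shc1 they were Nfkb1 (0.0291), an NF-kB subunit, Cask (0.0414), a synaptic scaffold, and Nucb2 (0.0502), the precursor of nesfatin. Nfkb1 was 22.8 and 23.6 FPKM in EGFR water, 23.1 and 23.9 at 3 h and 32.3 and 31.9 at 18 h. Grb2 was left out because its group means differed by less than 0.5. These are likenesses over 8 libraries that share their depth and scaling, with no test.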

How the data were processed

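The authors deposited FPKM per gene locus for each of the 8 libraries, named as such in the file headers. Per the labels, column-extracted RNA was reverse transcribed with Superscript III for Illumina sequencing. Per the submitters' processing notes, the tools were HTSeq 0.5.4, TopHat2 2.0.8, Trimmomatic 0.22 and DESeq, and the build was mm10. Which program made the FPKM, with what annotation, strand setting and choice of loci: not given in the sources used here. Counts are not used here, so no count model was run. The depth estimate used single-transcript genes over 1000 bases, in which 47.9% to 68.8% of low values lay within 0.15 of whole fragments. At random, a depth fixed beforehand would give 30%. Each depth was instead chosen to fit these same values best, which raises the share by itself. The share is therefore no test of the depth, and the fragment numbers built on it are rough. Starts were read as 0-based, since start plus 1 and end matched GENCODE M21 for 9829 of 12129 loci.

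The members and lists were chosen with earlier results of these data known. Values were tested as log2(FPKM + 1) with limma-trend (limma 3.58.1, R 4.3.3) fitted to the 8 libraries together (residual degrees of freedom 4, prior 3.29), Benjamini-Hochberg adjustment and a threshold of 0.05. The method was tested on simulated data with independent noise between libraries, for the 3 h comparison only. Far fewer genes were changed in the simulation than were called at 3 h in these data, and none of low FPKM. It therefore does not show the share of wrong calls in these data. Named genes were the 4 members, up to 4 called genes of each list and comparison by size of change, Egfr, and the 3 nearest genes of members whose group means differed by at least 0.5, among genes of mean FPKM of at least 5. The alternatives changed the pseudocount (0.1), the filter (none, or 5 FPKM), the scaling (quantile, median-ratio, common sum), the variance trend (none) and the libraries fitted (those of the 2 groups, or all but 1), or added a replicate block. Copies (at least 95% identity over 200 bases) were sought with minimap2 2.31. Python 3.11.15, pandas 2.3.3, NumPy 2.4.6 and matplotlib 3.10.9 were used. A nearest gene and some listed genes, with the lists that turn on them, are not reported here.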

Additional observations from a re-analysis of the deposited data

Results flagged for a closer look

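For 3 of the 4 adapter genes, the EGF libraries of 18 h and of 3 h differed by direct comparison. EGF duration and time in culture cannot be told apart in this difference, since water libraries carry the 3 h label only. The difference was 1.68 on the log2 scale for Grb14 (32.5 against 9.44 FPKM), 0.47 for Shc1 (40.1 against 28.6 FPKM) and −0.71 for Sh2d5 (4.68 against 8.26 FPKM), each in all 4 libraries concerned without overlap. Groups of 2 libraries are too small for a search for outlying libraries.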

How the results depend on the processing

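The EGF changes of Sh2d5 and Grb14 at 3 h, those of Sh2d5, Grb14 and Shc1 at 18 h and their differences between 18 h and 3 h kept direction and call under all 17 alternatives run. Their ranges were 1.61 to 2.05 and 0.35 to 0.45 at 3 h, 0.88 to 1.25, 2.03 to 2.18 and 0.45 to 0.49 at 18 h, and −0.81 to −0.62, 1.64 to 1.77 and 0.43 to 0.50 between the times. Grb2 in EGFR water against Neo water remained at −0.445 but lost its call without the filter, without the variance trend, with only the 2 groups fitted and with the replicate block (adjusted p = 0.0981, 0.0542, 0.0626 and 0.0652), and ran from −0.543 to −0.347 with 1 library left out. Grb2 at 3 h gained a call at 0.323 after rescaling to a common sum and at 0.247 with only the 2 groups. Changes that never passed turned sign: Sh2d5 between the lines (0.006 after rescaling to a common sum, −0.123 to 0.027 with 1 library left out), Shc1 at 3 h (0.024 after median-ratio scaling, 0.066 after rescaling to a common sum, −0.040 to 0.012 with 1 library left out) and Grb2 between 18 h and 3 h (−0.144 to 0.083 with 1 library left out). The cause was not tested.

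Over all genes, 338 were called higher and 315 lower between the lines, 1283 and 2142 at 3 h, 1437 and 2030 at 18 h, and 1922 and 1741 between 18 h and 3 h. Between the lines these became 183 and 199 with the replicate block and 108 and 129 with only the 2 groups. Rescaling to a common sum left 103 lower between the lines, 440 lower at 3 h, 705 lower at 18 h and 863 higher between the times. With 1 library left out, higher and lower counts ran from 23 to 372 and 63 to 304 between the lines, 610 to 1301 and 804 to 2296 at 3 h, 849 to 1438 and 925 to 2163 at 18 h, and 1050 to 1890 and 813 to 1750 between the times, where fewer libraries enter the fit and a lone library is assumed to vary like the other groups. Of 1088 list counts under alternatives, 933 were within 1.5 times the reported count, 112 smaller and 43 larger.

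Same-numbered libraries showed no common deviation across the groups (r = −0.172 to 0.310 over 6 pairs of groups), so the numbers were not taken as pairs. The highest r was that of Neo water with EGF 18 h, where same-numbered libraries did share some deviation. The block changed no other call of the 4 genes. With crossed numbers, chosen after seeing the data, 271 and 266 genes were called between the lines and 1593 and 1399 between the times.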
